A study of Mus musculus with 8 samples.

Results

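The 112 genes described here are cytokines, chemokines, colony stimulating factors, members of the tumour necrosis factor (TNF) family, their receptors and some proteins named for them, measured in a mouse leg muscle after 4 h of nerve-driven contraction. They are the gene symbols in the probe annotation that begin with Il, Ccl or Ccr followed by a digit, or with Cxcl, Cxcr, Csf1 to Csf3, Tnf, Lif or Osm, less 7 genes that were set aside with earlier results of these arrays known (Il6, Ccl2, Ccl7, Ccl11, Ccl24, Cxcl14 and Ccr2). Of the 6370 gene symbols on the arrays, 119 matched and 112 were kept, each with 1 probe, and all 112 could be tested. The name does not make every one of them a cytokine or a receptor: 5 are TNF-induced proteins, 1 is a binding protein (Il18bp) and 1 is an enzyme (Il4i1).

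The study used 8 one-colour CodeLink arrays, each hybridised with RNA of 1 extensor digitorum longus (EDL), a fast-twitch muscle of the lower hindlimb. In 4 Swiss Webster mice, numbered 183, 197, 438 and 440 and described as male, the EDL of 1 leg was made to contract for 4 h by stimulating the sciatic nerve, and the unstimulated EDL of the opposite (contralateral) leg of the same animal was its control. The labels used here give no age, genotype change or drug for these mice. The contralateral muscle shares the animal's circulation, so it is not the muscle of an untouched mouse. The question the pairs answer is which transcripts differ between a muscle that has just contracted and its resting partner.

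Cytokines are secreted proteins that act on nearby cells through surface receptors. Chemokines are the small cytokines that draw leukocytes along a gradient by way of G protein-coupled receptors, interleukins and colony stimulating factors act mostly through receptors that signal by JAK kinases and STAT factors, and interleukin 1 and TNF act through adaptors that lead to the transcription factor NF-kB. In skeletal muscle these proteins come from fibres as well as from resident macrophages, endothelial cells and fibroblasts, and some of them are known to be released by contracting muscle.

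Tnfaip2 was the member that rose, 2.53-fold in stimulated muscle. No member fell at the same threshold. The interleukin Il3 and the neutrophil-attracting chemokine Cxcl1 came next, with adjusted p of 0.0516 and 0.0549. The member with a rise is itself no cytokine: Tnfaip2 encodes a cytosolic protein, also known as M-Sec, that is induced by TNF in endothelial cells and takes part in forming thin membrane tubes between cells. Values here are the deposited normalized intensities, on a linear scale with no unit. Changes are differences in log2 intensity, stimulated minus contralateral, fitted by limma with the mouse as a block and given ± limma's moderated standard error (SE). Adjusted p-values are Benjamini-Hochberg values over all 10406 tested probes, with a threshold of 0.05.

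Tnfaip2 read 12.4, 9.29, 12.005 and 21.4 in the stimulated muscles of mice 183, 197, 438 and 440, against 3.99, 7.64, 3.69 and 6.42 in their contralateral muscles. Every stimulated value lay above every contralateral value, and the pair of mouse 197 lay closest together. Mean log2 intensity was 3.71 ± 0.51 in stimulated and 2.37 ± 0.51 in contralateral muscles (SD, n = 4 each). The log2 change was 1.34 ± 0.26 (SE, n = 4 mice, limma adjusted p = 0.0436), and the single pairs gave 1.64, 0.28, 1.70 and 1.74 in the same order of mice. It was 0.96 within mice 183 and 197 and 1.72 within mice 438 and 440. The adjusted p lies just under the threshold: it was 0.238 without mouse 183, 0.161 without mouse 438, 0.0583 without mouse 440 and 0.438 without the mouse as a block. The 300 bases around its start, from 250 before to 50 after, are shown because this is the promoter of the member that rose. They come from RefSeq (GRCm38.p6, chr12:111442411-111442710, plus strand, 5′ to 3′), all in lower case because neither of the motifs searched, given further on, was in this window.
Tnfaip2: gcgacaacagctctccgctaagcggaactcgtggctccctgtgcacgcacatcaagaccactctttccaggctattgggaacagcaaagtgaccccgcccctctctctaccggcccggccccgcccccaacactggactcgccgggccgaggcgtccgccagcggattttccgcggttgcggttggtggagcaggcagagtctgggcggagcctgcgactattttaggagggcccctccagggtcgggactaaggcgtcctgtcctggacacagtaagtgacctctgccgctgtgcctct

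One Tnfaip2 in 112 members is 0.893%, and the share of all tested probes that were higher at this threshold was 1.11%. The share of all probes that were lower was 0.231%, and the members had 0. Both shares are near those of the whole array. Control probes carry no mark in the deposited table, so the shares of all probes may include some; among the 6318 tested probes with a gene symbol, 1.39% were higher and 0.269% lower. This count is lowered by the choice of genes: of the 7 genes of the same families that were set aside, 5 rose (Ccl2, Ccl7, Ccl11, Cxcl14 and Ccl24, log2 changes 1.53 to 3.66, adjusted p 0.00243 to 0.0358), while Il6 reached 2.69 ± 0.54 with an adjusted p of 0.0507 and Ccr2 was at -0.61 ± 0.40 with an adjusted p of 0.472.

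Below the threshold, positive changes made up a larger share of the members than of the array, a comparison given with no test of the difference. At an unadjusted p under 0.05, 21 members (18.8%) were higher, against 6.74% of all tested probes and 7.38% of those with a symbol, and 9 members (8.04%) were lower, against 8.49%. A positive change of any size was found in 60 members (53.6%), against 35.3% of all probes. The median change was 0.06 in the members and -0.14 over all probes. Cyclic loess, another scaling between arrays, moved the median of all probes to -0.01 and that of the members to 0.14, with 68 of 109 members then positive. The 35.3% above comes from the main fit and is no comparison for that count. The share of all probes under cyclic loess is not given here. The counts at an unadjusted p are a description and no calls. At the same unadjusted threshold but without the mouse as a block, 5 members (4.46%) were found in both directions together, against 4.58% of probes. The paired test without moderation gave 13 members (11.6%), against 11.6% of probes, so neither fit showed the larger share of the members. With a higher floor for dim values, the 20th percentile, it was 16 members (14.3%), against 12.5%. The members' share was the larger one in the other alternatives.

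In every mouse measured, 18 members (16.1%) were higher, against 8.57% of all probes, and 13 (11.6%) were lower, against 16.8%. A fitted change of at least 2-fold with the same direction in every mouse was seen in 7 members on the higher side, which is 6.25% against 2.48% of all probes: Ccl9, Ccl17, Cxcl1, Il3, Il10, Tnfaip2 and Tnfrsf11a. On the lower side it was seen in 1 member, Ccl1, which is 0.893% against 0.932%. A difference of any size counted as a direction, and the smallest on the higher side were 0.006 for Il10 in mouse 438 and 0.075 for Ccl9 in mouse 197. Stimulated values that all lay above the contralateral ones were found in 1 member, Tnfaip2, against 1.54% of all probes. Values that all lay below were found in 1 member, Ccl1, against 1.64%.

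**Figure D1:**
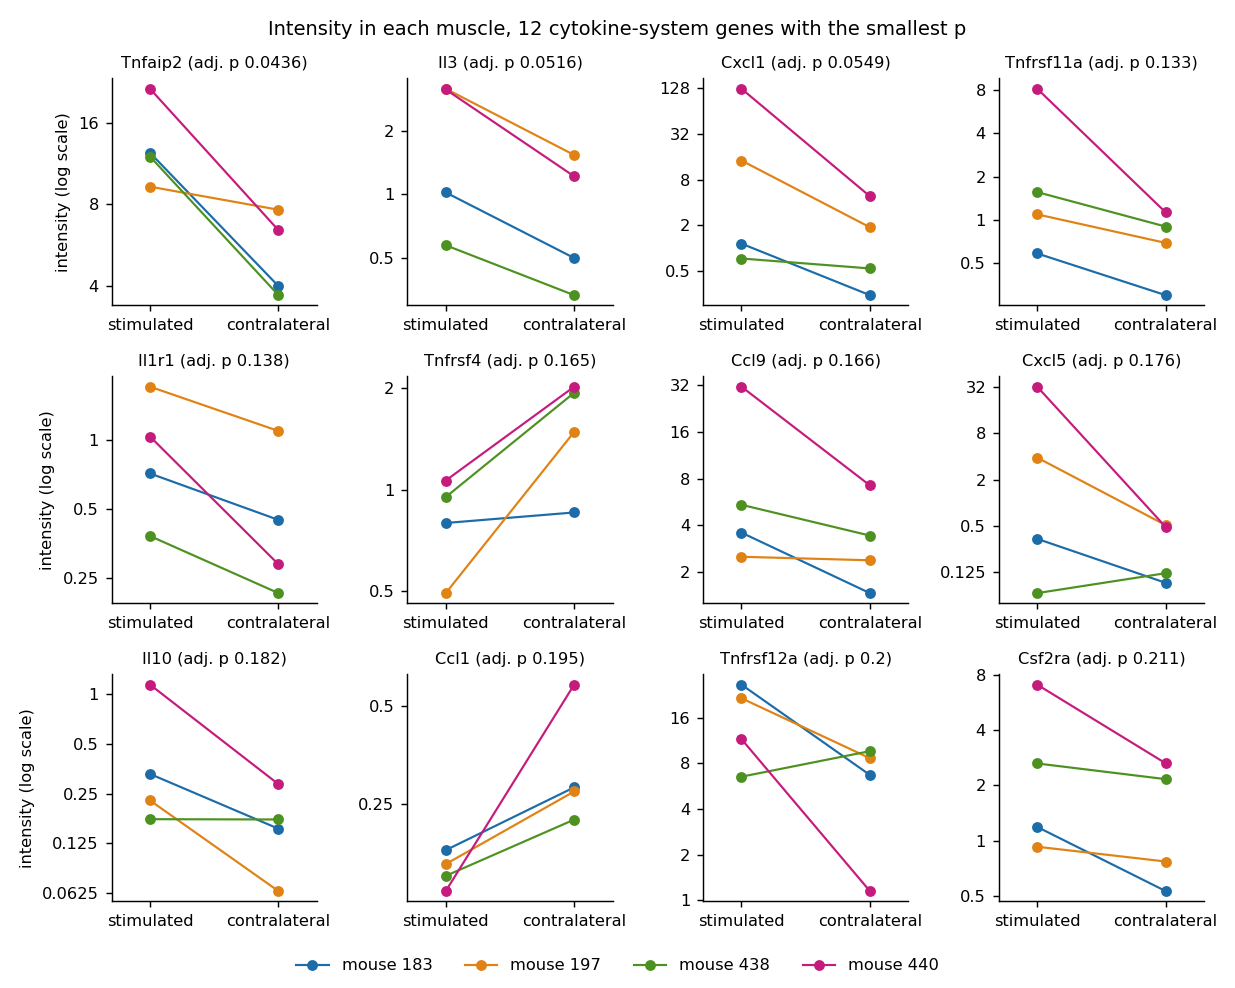
Intensity of the 12 members with the smallest unadjusted p, one panel per gene on a log axis, with the stimulated muscle left and the contralateral muscle right and a line joining both muscles of a mouse. Of these panels, Tnfaip2 and Ccl1 are the ones whose columns of points do not overlap, and the stimulated muscle of mouse 440 is the top point of Cxcl1 (127), Cxcl5 (32.3), Ccl9 (31.3) and Tnfrsf11a (8.14).

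The chemokine ligands were the largest group, 23 genes, of which 0 passed the threshold. Their changes had a median of 0.30 and ran from -1.01 in Ccl1 to 2.62 in Cxcl5. Of these, 15 were positive and 8 negative, beside 35.3% positive over all probes. An unadjusted p under 0.05 in either direction was found in 9, a threshold met by 15.2% of all probes. The median was 0.45 under cyclic loess and 0.11 without mouse 440. Both ends of this range were genes of low or uneven signal, as their values show.

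Cxcl1, known in mouse as KC, attracts neutrophils through the receptor Cxcr2. It read 1.14, 14.3, 0.725 and 127 in the stimulated muscles of mice 183, 197, 438 and 440, against 0.238, 1.87, 0.536 and 4.81 in the contralateral muscles. It was higher in the stimulated muscle of every mouse, yet the levels of the mice differ so much that the groups overlap. The change was 2.59 ± 0.53 (6.01-fold, n = 4, adjusted p = 0.0549), ranging over the mice from 0.44 in mouse 438 to 4.72 in mouse 440. Within mice 183 and 197 it was 2.59 and within mice 438 and 440 it was 2.58. Without mouse 440 it was 1.88 and without mouse 438 it was 3.30, and in both of these fits it passed the threshold.

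Cxcl5, known in mouse as LIX, is another ligand of Cxcr2. Its stimulated values were 0.339, 3.86, 0.0668 and 32.3, against contralateral values of 0.0909, 0.512, 0.121 and 0.484 in the same order of mice. In mouse 438 the stimulated muscle was the lower one, and 2 of the 8 values lay under the floor of 0.0937. The change was 2.62 ± 0.79 (adjusted p = 0.176), and without mouse 440 it was 1.47, while without mouse 438 it passed the threshold. The receptor of both ligands, Cxcr2, was higher in every mouse, at 0.547, 0.927, 0.787 and 0.713 in stimulated muscles and 0.468, 0.567, 0.579 and 0.349 in contralateral ones. Its change of 0.60 ± 0.24 did not pass (adjusted p = 0.282).

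Ccl9 and Ccl6, a pair of rodent chemokines that act on Ccr1, differed mainly in how even the pairs were. Ccl9 read 3.58, 2.50, 5.41 and 31.3 in stimulated muscles, against 1.46, 2.37, 3.43 and 7.22 in contralateral muscles, a change of 1.04 ± 0.31 (adjusted p = 0.166) that was 0.68 without mouse 440. Ccl6 read 11.9, 7.95, 31.5 and 59.5 in stimulated muscles, against 9.24, 5.91, 21.3 and 47.8 in contralateral muscles. Its pairs moved by 0.32 to 0.56, the same direction in each mouse, and the change of 0.42 ± 0.16 had an adjusted p of 0.279. The mice lie further apart than the legs in both genes. Their receptor Ccr1 read 0.147, 0.207, 0.381 and 1.89, against 0.131, 0.181, 0.280 and 0.477, a change of 0.70 ± 0.34 (adjusted p = 0.35).

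The promoters of Cxcl1 and Ccl9 are shown because they belong to the chemokine ligands with the smallest p and carry a motif of NF-kB or of AP-1, the factor built from Fos and Jun proteins. Both are RefSeq windows of GRCm38.p6, 250 bases before to 50 after the start, 5′ to 3′ in the direction of the gene. Cxcl1 lies at chr5:90890995-90891294 on the plus strand, and its capitals mark 2 overlapping matches to the NF-kB motif, the first starting 71 bases before the start. Ccl9 lies at chr11:83578587-83578886 on the minus strand. Its first run of capitals is the AP-1 motif, 53 bases before the start, and its second is the NF-kB motif, 35 bases before the start.
Cxcl1: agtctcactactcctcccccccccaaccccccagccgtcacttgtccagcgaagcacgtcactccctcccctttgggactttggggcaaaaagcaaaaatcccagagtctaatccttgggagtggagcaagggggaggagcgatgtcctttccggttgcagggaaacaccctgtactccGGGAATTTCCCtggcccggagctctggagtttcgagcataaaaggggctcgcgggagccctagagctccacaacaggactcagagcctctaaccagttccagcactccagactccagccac
Ccl9: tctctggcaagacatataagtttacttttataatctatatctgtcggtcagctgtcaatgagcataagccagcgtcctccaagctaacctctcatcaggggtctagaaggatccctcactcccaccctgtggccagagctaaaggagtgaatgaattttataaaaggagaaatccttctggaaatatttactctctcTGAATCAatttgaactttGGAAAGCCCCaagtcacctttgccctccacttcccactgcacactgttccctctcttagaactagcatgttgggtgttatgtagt

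The searches covered both strands, with TGANTCA for AP-1 and the usual degenerate ten-letter NF-kB consensus, named here by its name alone. Over all 32851 promoter windows the NF-kB motif was found in 4.51% and the AP-1 motif in 7.81%. The members had 105 windows of 88 genes, of which 12 (11.4%) held the NF-kB motif and 24 (22.9%) the AP-1 motif. Among the 12 members with the smallest p, the 11 windows of 10 genes held the NF-kB motif in 3, those of Ccl9, Cxcl1 and Il1r1, and the AP-1 motif in 1, that of Ccl9. A match is a run of letters and not a bound site, and a window without one says nothing of the factor.

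Ccl17, which attracts T cells through Ccr4, was higher in every mouse but from very different levels. Its stimulated values were 0.261, 0.344, 0.177 and 3.31, against 0.189, 0.250, 0.109 and 0.501, and its change was 1.09 ± 0.39 (adjusted p = 0.243), or 0.54 without mouse 440. Ccl22, the other ligand of Ccr4, was at 0.08 ± 0.22, and Ccr4 itself at 0.14 ± 0.28. Ccl1, a ligand of Ccr8, was the member lower in every pair without overlap: 0.180, 0.163, 0.150 and 0.135 in stimulated muscles, against 0.281, 0.273, 0.223 and 0.580 in contralateral muscles. These are dim signals, less than the array median of 0.90 to 0.94, and the change was -1.01 ± 0.32 (adjusted p = 0.195), or -0.65 without mouse 440. Its receptor Ccr8 was at -0.80 ± 0.32 (adjusted p = 0.287), lower in 3 of 4 mice.

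The brightest chemokine probes differed little between the legs. Ccl19, a ligand of Ccr7 that guides lymphocytes and dendritic cells, read 56.1, 71.4, 169 and 130 in stimulated muscles, against 83.1, 83.3, 247 and 128 in contralateral muscles (change -0.33 ± 0.17, adjusted p = 0.363). Mouse has near-identical copies of Ccl19, Ccl21b and Ccl27a, so the values of those probes may be sums over copies. Ccl4, which attracts monocytes and T cells, read 92.9, 95.9, 90.2 and 52.3 in stimulated muscles, against 85.3, 102, 73.9 and 70.4 in contralateral muscles. Its change was -0.03 ± 0.17, and its sign turned under quantile normalization, under cyclic loess, without mouse 440 and within mice 183 and 197. Among the monocyte attractants that were members, Ccl8 was at 0.90 ± 0.33 (adjusted p = 0.246) with a negative value in mouse 440, without which it passed, and Ccl12 was at 0.50 ± 0.21 (adjusted p = 0.296), higher in all 4 mice. The ligands of Cxcr3 were uneven, with Cxcl10 at 0.87 ± 0.40 and Cxcl9 at 0.30 ± 0.54, which was -2.14 in mouse 438.

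**Figure D2:**
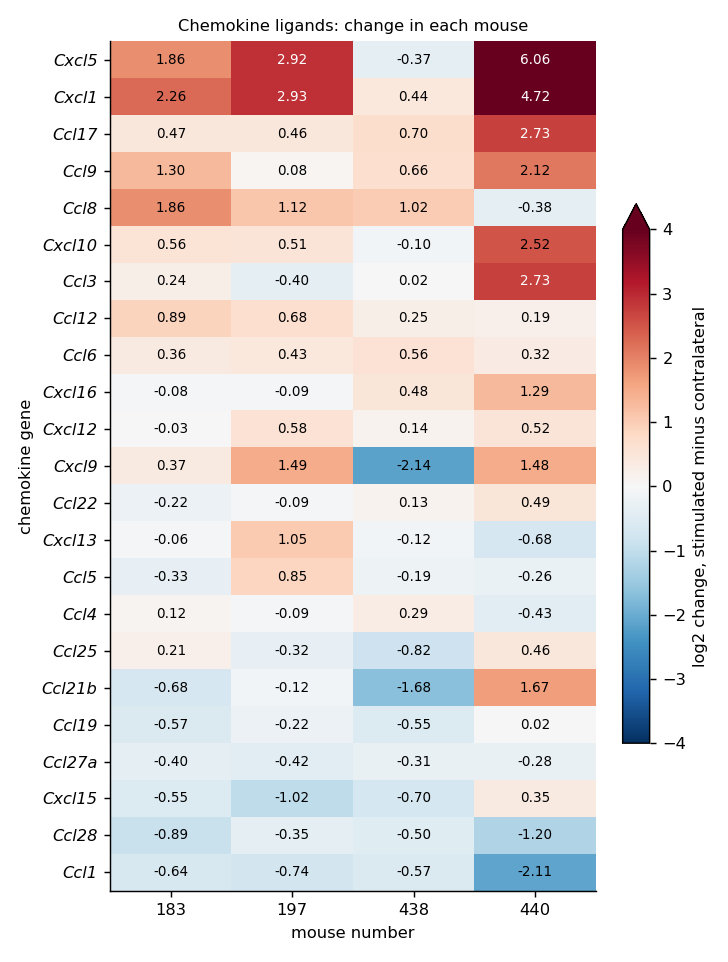
Log2 change in each mouse, stimulated minus contralateral muscle, for the 23 chemokine ligands, one row per gene in order of the fitted change and one column per mouse, with red for higher and blue for lower in the stimulated muscle and the value printed in each cell. The row of Cxcl5 runs from -0.37 in mouse 438 to 6.06 in mouse 440, that of Ccl6 lies within 0.32 to 0.56, and colours stop deepening at 4.

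The chemokine receptors gave 13 genes, of which 0 passed, with a median change of -0.01 that was 0.15 under cyclic loess. The brightest was Cxcr4, the receptor of Cxcl12, at 37.0, 35.7, 65.0 and 23.2 in stimulated muscles and 32.2, 38.8, 33.6 and 29.9 in contralateral muscles. Only mouse 438 had a large difference, and the change was 0.17 ± 0.22. Its ligand Cxcl12 was at 0.30 ± 0.25. The lowest changes were in Ccr3, an eosinophil receptor, at -0.84 ± 0.30 (adjusted p = 0.243, lower in every mouse), Ccr8 and Ccr1l1 (-0.71 ± 0.30). All were dim, with no value above 0.588, and they were -0.58, -0.53 and -0.41 under cyclic loess. Ccr6 and Cxcr6 had a missing value in 1 contralateral muscle each and were fitted on 3 mice.

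The interleukin ligands gave 19 genes, 9 with positive and 10 with negative changes, a median of -0.04 and 0 past the threshold. Of all tested probes 35.3% were positive, with a median of -0.14. Under cyclic loess the median of the interleukin ligands was 0.08. The largest positive changes were in Il1b, Il10 and Il3.

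Il3, a growth factor of blood cells made chiefly by activated T cells and mast cells, was more even over the mice than Cxcl1. Its stimulated values were 1.02, 3.15, 0.572 and 3.13, against 0.498, 1.53, 0.332 and 1.21 in the contralateral muscles. Each stimulated muscle exceeded its own partner by 0.78 to 1.37 on the log2 scale, although the mice overlap. The change was 1.06 ± 0.21 (2.08-fold, adjusted p = 0.0516), at 1.04 within mice 183 and 197 and 1.08 within mice 438 and 440. The T cell marker probes, 7 of 9 listed and 0 of them called, summed to 1.82 to 3.23 in stimulated muscles and 2.27 to 2.79 in contralateral muscles. The mast cell marker probes, 4 of 4 listed and 0 called, summed to 4.41 to 15.3 and 4.35 to 12.2. The part of these cells in the Il3 values was not tested. The chains through which Il3 acts did not follow it: Il3ra was at -0.08 ± 0.20, Csf2rb at -0.73 ± 0.34 and Csf2rb2 at 0.26 ± 0.27. Csf2rb and Csf2rb2 are near-identical genes, so their probes may not tell them apart.

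Il10, which dampens macrophage activation, read 0.329, 0.227, 0.175 and 1.14 in stimulated muscles, against 0.153, 0.0644, 0.174 and 0.285 in contralateral muscles. Mouse 438 did not differ between its legs, and 1 value lay under the floor. The change was 1.10 ± 0.34 (adjusted p = 0.182). Of its receptor chains, Il10ra was at 0.70 ± 0.33 with 3 values under the floor and Il10rb at 0.43 ± 0.31. Il5, the growth factor of eosinophils and among the brightest interleukin probes, differed little between the legs, with 9.07, 13.1, 12.9 and 18.7 in stimulated muscles, against 10.98, 10.2, 13.0 and 16.5 in contralateral muscles (0.06 ± 0.18). Il15, an interleukin that muscle fibres make, was at -0.31 ± 0.22, and its receptor chain Il15ra at 0.12 ± 0.22.

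The interleukin 1 system was measured at most of its points. The ligand Il1b, a trigger of fever and inflammation, read 0.370, 1.03, 1.81 and 57.0 in stimulated muscles, against 0.238, 0.306, 1.98 and 3.30 in contralateral muscles. Its change of 1.59 ± 0.56 (adjusted p = 0.237) was 0.75 without mouse 440. Il1r1, the signalling receptor, was more even, at 0.711, 1.70, 0.380 and 1.03 in stimulated muscles, against 0.447, 1.09, 0.214 and 0.286 in contralateral muscles. It was higher in each mouse, by 0.64 to 1.85, with a fitted change of 1.00 ± 0.27 (adjusted p = 0.138). The decoy receptor Il1r2 was at 0.48 ± 0.32, the accessory chain Il1rap at 0.36 ± 0.29, the antagonist Il1rn at 0.30 ± 0.43 and the second ligand Il1a at -0.35 ± 0.30. In the stimulated muscle of mouse 440 Il1b, Il1r2 and Il1rn all exceeded their own contralateral value by more than 1 on the log2 scale.

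The 19 interleukin receptor chains had a median change of -0.18, 8 positive and 11 negative, beside 35.3% positive over all probes, and 0 passed. The median was 0.02 under cyclic loess, so its sign turned with the scaling. Il2rb, a chain shared by the receptors of Il2 and Il15 and among the brightest members, read 8.45, 9.60, 10.4 and 6.48 in stimulated muscles, against 8.25, 12.1, 13.4 and 9.12 in contralateral muscles, which overlap (change -0.29 ± 0.18). The chains Il6ra, Il17rb and Il21r were lower in every mouse, with -0.61 ± 0.26 for Il6ra, which binds Il6, -0.62 ± 0.27 for Il17rb and -0.61 ± 0.27 for Il21r. They read at most 0.232 in any stimulated muscle, and under cyclic loess they were at -0.31, -0.32 and -0.29. The signalling partner of Il6ra, Il6st, was at -0.18 ± 0.27. Il18rap, a chain of the Il18 receptor, was higher in every mouse (0.65 ± 0.27, adjusted p = 0.301).

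Among 6 colony stimulating factor genes 0 passed, and the median change of 0.41 was 0.02 without mouse 440. Csf3, which drives the production of neutrophils, read 7.89, 14.3, 16.2 and 74.1 in stimulated muscles, against 10.0, 9.80, 15.3 and 18.9 in contralateral muscles. Mouse 440 alone set it apart, with 1.97 in that mouse and -0.34 to 0.55 in the others (0.56 ± 0.33). Csf2ra, the receptor chain of granulocyte-macrophage colony stimulating factor, was higher in every mouse, at 1.19, 0.926, 2.64 and 7.09 in stimulated muscles, against 0.531, 0.769, 2.16 and 2.64 in contralateral muscles (0.78 ± 0.26, adjusted p = 0.211). Csf1, the macrophage growth factor, was at 0.92 ± 0.36 (adjusted p = 0.277), with -0.44 in mouse 183 and 0.77 to 1.75 in the others.

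Lif, a relative of Il6 that is known to be induced in contracting muscle, read 9.92, 6.83, 5.81 and 6.31 in stimulated muscles. The contralateral muscles of mice 197, 438 and 440 had 3.06, 4.60 and 4.17, and that of mouse 183 had no value. Every stimulated value lay above the contralateral values that were measured, and the change over the 3 complete mice was 0.70 ± 0.25 (adjusted p = 0.244). Osmr, the receptor of the related oncostatin M, was higher in all 4 mice (0.55 ± 0.22, adjusted p = 0.283), and Lifr was at 0.20 ± 0.26.

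**Figure D3:**
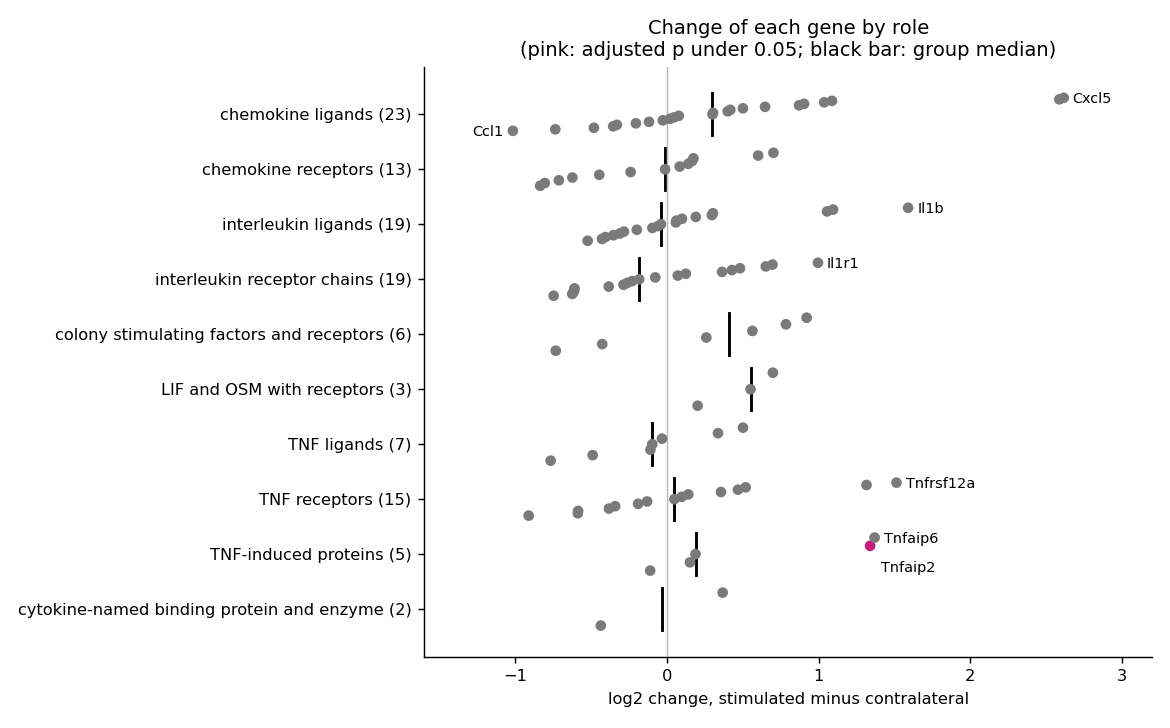
Fitted log2 change of every member, stimulated minus contralateral, grouped by role, with a bar at each group's median. The medians run from -0.18 (interleukin receptor chains) to 0.55 (LIF and OSM with receptors), and the single called gene is Tnfaip2 at 1.34.

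Of 7 TNF ligands 0 passed, with a median change of -0.10, 2 positive and 5 negative, beside 35.3% positive over all probes. Tnf itself was dim, at 0.116, 0.169, 0.280 and 0.385 in stimulated muscles, against 0.121, 0.117, 0.365 and 0.160 in contralateral muscles. The legs crossed from mouse to mouse, and the change was 0.34 ± 0.32. Its receptor Tnfrsf1a was at 0.47 ± 0.25, higher in 3 of 4 mice, and Tnfrsf1b at -0.59 ± 0.37. Tnfsf13, also known as APRIL, a survival factor of B cells, was lower in every mouse (-0.49 ± 0.22, adjusted p = 0.334).

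Of 15 TNF receptors 0 passed, the median was 0.05, and 8 changes were positive and 7 negative, beside 35.3% positive over all probes. Tnfrsf12a, or Fn14, the receptor of the cytokine TWEAK that is known to rise in injured or denervated muscle, was the brightest. It read 26.4, 21.5, 6.53 and 11.5 in stimulated muscles, against 6.71, 8.64, 9.62 and 1.15 in contralateral muscles. Mice 183, 197 and 440 had 1.98, 1.31 and 3.32, and mouse 438 ran the other way with -0.56. The change was 1.51 ± 0.49 (2.85-fold, adjusted p = 0.2), at 2.20 without mouse 438, where it passed, and 0.91 without mouse 440.

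Tnfrsf11a, or RANK, the receptor that drives osteoclast formation, was higher in every mouse. Its stimulated values were 0.586, 1.09, 1.56 and 8.14, against 0.301, 0.693, 0.900 and 1.13. The change was 1.32 ± 0.36 (2.49-fold, adjusted p = 0.133) and 0.80 without mouse 440. Its ligand Tnfsf11 was at -0.11 ± 0.24 and the soluble decoy Tnfrsf11b at 0.14 ± 0.24. Tnfrsf4, or OX40, a costimulatory receptor of T cells, was lower in every mouse, at 0.797, 0.494, 0.952 and 1.07 in stimulated muscles, against 0.857, 1.48, 1.94 and 2.02 in contralateral muscles. Its change was -0.91 ± 0.27 (adjusted p = 0.165) and -0.91 again without mouse 440. The neighbouring decoy receptors Tnfrsf22 and Tnfrsf23 are close copies, and their probes gave -0.19 ± 0.25 and 0.52 ± 0.32.

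Beside Tnfaip2, the TNF-induced group held Tnfaip6, Tnfaip3, Tnfaip8l1 and Tnfaip1. Tnfaip6, or TSG-6, a secreted protein that binds hyaluronan, read 0.163, 0.561, 0.156 and 6.43 in stimulated muscles, against 0.133, 0.140, 0.235 and 0.472 in contralateral muscles. The difference was large in mice 197 and 440 alone (change 1.37 ± 0.59, adjusted p = 0.317). Tnfaip3, or A20, an enzyme that restrains NF-kB signalling, was nearly level at 0.15 ± 0.20. The named genes whose intensities followed Tnfaip2 most closely over the 8 arrays, among 6244 genes, were Sox17 (Pearson r = 0.96), Eng (0.95), Hif1a (0.94), Tead1 (0.93) and Myd88 (0.93). These coefficients hold the difference between the legs as well as that between the mice, since all 8 arrays enter.

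One animal set the scale of many of these values. Of the 109 members with all 8 values, 41 (37.6%) had their highest value in the stimulated muscle of mouse 440, against 18.6% of 10245 complete probes, and 34 (31.2%) had it in that mouse's contralateral muscle, against 30.3%. The stimulated muscles of mice 183, 197 and 438 were highest in 3, 9 and 4 members. Mouse 440 had 29 members at least 2-fold higher in its stimulated muscle (25.9%, against 8.73% of probes). The counts were 13 for mouse 183 (11.7%, against 5.16%), 11 for mouse 197 (9.91%, against 4.15%) and 5 for mouse 438 (4.5%, against 4.77%). Downward differences of that size were seen in 3 members in mouse 183 (2.7%, against 3% of probes) and 4 in mouse 197 (3.6%, against 2.72%). There were 8 in mouse 438 (7.21%, against 5.09%) and 13 in mouse 440 (11.6%, against 17.2%).

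**Figure D4:**
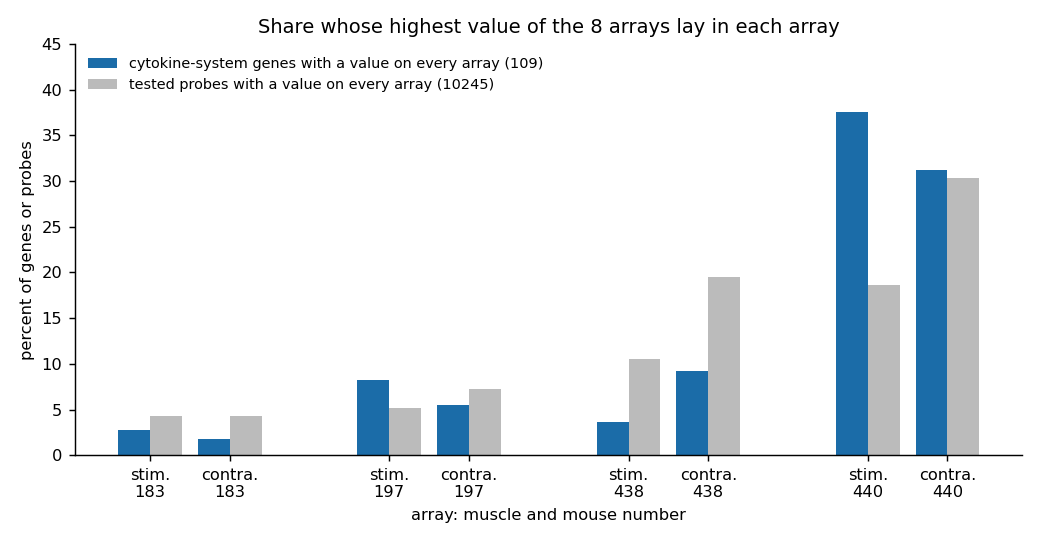
Share in percent of genes whose highest intensity fell on each of the 8 arrays, by mouse with the stimulated muscle left of the contralateral one, for the 109 complete members and for all 10245 complete probes. The stimulated muscle of mouse 440 holds 37.6% of the members and 18.6% of the probes.

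Some markers of other cells were also highest in the stimulated muscle of mouse 440, while others were not. The neutrophil probes, 6 of 8 listed and 0 of them called, summed to 13.0, 50.9, 70.5 and 430 in the stimulated muscles of mice 183, 197, 438 and 440, against 11.2, 40.4, 68.8 and 82.2 in the contralateral muscles. S100a8 alone made up 418 of the 430, and in that mouse Ngp, Camp and Ltf had changes of 2.01, 1.90 and 1.87, but Elane -0.08 and Mpo -0.83. The macrophage and monocyte probes, 9 of 14 listed and 0 called, summed to 32.8, 38.6, 79.6 and 245, against 30.8, 26.7, 52.7 and 91.5. Cd14 supplied most of the difference in mouse 440, at 116 in its stimulated and 9.76 in its contralateral muscle, while C1qa and Fcgr1 had changes of -0.40 and -0.52 there. The endothelial probes, 5 of 7 listed and 0 called, summed to 14.1 to 32.7 in stimulated muscles and 16.5 to 30.0 in contralateral muscles. They did not move together: Kdr was higher in every mouse (0.63 ± 0.19), while Tie1, Tek, Pecam1 and Cdh5 had changes of -0.33, -0.26, -0.22 and -0.53. In each of these lists 0 markers were below the floor on all 8 arrays. The part of these cells in the members' values was not tested, and in whole muscle a change in the number of cells of a type and a change in RNA per cell cannot be told apart. The fibre probes of the EDL, 5 of 8 listed and 0 called, were bright on every array, so the labelled tissue was present. They summed to 3377, 4103, 5137 and 5407 in the stimulated muscles of mice 183, 197, 438 and 440. The contralateral sums were 5154, 5044, 6313 and 8131. All 5 probes were lower in the stimulated muscle of every mouse, with a median change of -0.49, and the cause was not tested.

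The distance between mice was large beside most changes, although the fit compares the 2 muscles within each mouse. In 107 of 112 members (95.5%) the range over the contralateral muscles exceeded the fitted change, as it did in 94.2% of all probes. The 5 exceptions were Tnfaip2, Lif (with 3 contralateral values), Cxcl5, Csf2rb and Ccl28. This range is not the spread of the pairs, which the blocked fit uses. Il3, among the 107, had pairs of 0.78 to 1.37, and Cxcl5, an exception, had pairs of -0.37 to 6.06. Mice 183 and 197 also stand apart from mice 438 and 440 in probe coverage, with 56 probes that lacked values on all 4 arrays of mice 183 and 197 but on none of mice 438 and 440, and 25 the other way round. A test of whether the change differed between these pairs of mice called 0 members and 0 probes with limma at an adjusted p of 0.05. At an unadjusted p under 0.05 it gave 4 of 112 members (Csf1, Il11, Tnfsf13b and Tnfrsf1b) and 319 of 10406 probes, a description and no calls.

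The members were also split by brightness, taken as the mean over all 8 arrays, the stimulated ones included. A member high in 1 stimulated muscle can enter the brighter class through that value, so its positive share is partly built in. Tnfaip6, for example, had a mean of 1.04, with contralateral values of 0.133 to 0.472 and 6.43 in the stimulated muscle of mouse 440. The 41 members with a mean intensity above 1.01, that of the median probe, had 29 positive changes (70.7%, against 40.8% of such probes) and a median of 0.26, against -0.08 over those probes. The 71 dimmer members had 31 positive changes (43.7%, against 29.8%) and a median of -0.11, against -0.20, and under cyclic loess this median turned to 0.05, against 0.01. Under cyclic loess the brighter members kept a median of 0.27, against -0.02. Many dim values lay close to the floor of 0.0937: 31 members had at least 1 value under it. The stimulated muscle of mouse 183 had the most such values, 17 members, and its contralateral partner had 8. Over all probes that array also had the most, 1387 of 10406 values, against 619 of 10383 on its partner.

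**Figure D5:**
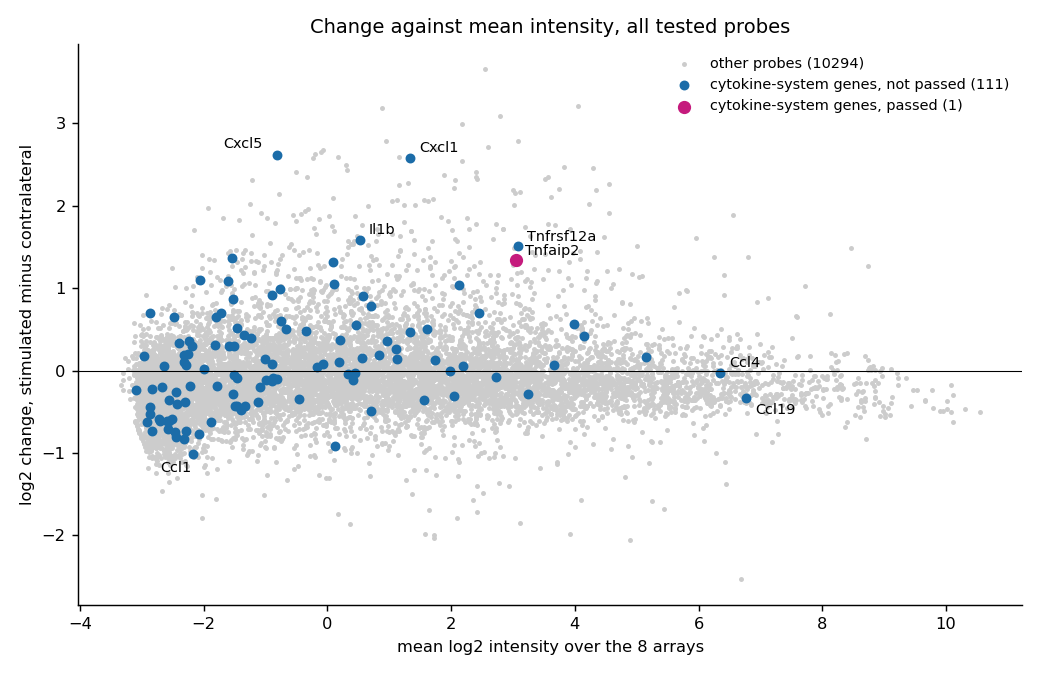
Fitted log2 change, stimulated minus contralateral, against the mean log2 intensity over the 8 arrays, for the 112 members (coloured) and all other tested probes (grey). Tnfaip2 at 1.34 is the 1 member that passed, Cxcl5 and Cxcl1 at 2.62 and 2.59 lie above it, and Ccl1 at -1.01 is the lowest member.

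Neighbouring genes did not always share a direction. With at most 2 protein-coding genes between them, 43 members fell into 18 runs in the RefSeq order of genes. On chromosome 11 the run of Ccl12, Ccl8 and Ccl1 had changes of 0.50, 0.90 and -1.01, and the run of Ccl5, Ccl9, Ccl6, Ccl3 and Ccl4 had 0.02, 1.04, 0.42, 0.65 and -0.03. The runs hold members only. Of the genes set aside, Ccl2, Ccl7 and Ccl11 also lie on chromosome 11, and they rose by 2.72, 3.66 and 2.33. On chromosome 5 Cxcl1 at 2.59 stands beside Cxcl15 at -0.48, and Cxcl5, on the same chromosome but in none of the runs, was at 2.62. On chromosome 2 Il1b at 1.59 stands beside Il1a at -0.35, and on chromosome 8 Ccl17 at 1.09 beside Ccl22 at 0.08. No member in the runs passed the threshold, and Ccl1, Cxcl15, Il1a and Ccl22 were dimmer than the median probe.

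Genes that carry or answer cytokine signals, none of them a member, are given for comparison. Of 50 listed, 38 were measured, 8 rose, 0 fell and 30 did not pass, beside 1.11% higher and 0.231% lower over all probes. Their median change was 0.48 and 31 were positive, beside a median of -0.14 and 35.3% positive over all probes. Feedback inhibitors of JAK and STAT signalling were among the 8: Socs3 (2.41 ± 0.33, adjusted p = 0.0117), Socs1 (1.89 ± 0.31, 3 mice, adjusted p = 0.0267) and Cish (1.53 ± 0.27, adjusted p = 0.0281). So were Myd88, the adaptor of the interleukin 1 receptor (1.41 ± 0.28, adjusted p = 0.0445), and Map3k8, a kinase downstream of TNF and Toll-like receptors (2.14 ± 0.29, adjusted p = 0.0105). The others were Ptx3 (2.45 ± 0.26, adjusted p = 0.00499) and Saa3 (2.21 ± 0.31, adjusted p = 0.0117), both secreted proteins of acute inflammation, and Zfp36 (1.35 ± 0.21, adjusted p = 0.0142), which destabilises cytokine transcripts. The list was written with earlier results of these arrays known, so its count is no independent support for a direction.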

How the data were processed

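The arrays measured total RNA of 4 stimulated and 4 contralateral EDL muscles as biotin-labelled cRNA on 1-colour CodeLink arrays, per the labels' protocols. The authors deposited 1 normalized intensity per probe and array; how background and scaling were handled is not given in the sources used here. Arrays held 10367 to 10474 values with medians of 0.90 to 0.94, and their number limits the precision (median SE of a log2 change 0.28 in the members).

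Gene symbols came from the platform annotation (6373 of 10500 probes with 1 symbol, 0 with several, 4127 with none), checked by Entrez identifier against RefSeq, GRCm38.p6. Intensities under 0.0937, the 5th percentile of positive values, were set to that floor before log2. Probes needed values in both muscles of at least 3 mice (10406 tested). The test was limma 3.58.1 (R 4.3.3), two-sided, blocked by mouse, with the variance prior following intensity, adjusted by Benjamini-Hochberg. Titles give both muscles of a pair the same mouse number, and both muscles of a mouse deviated together from their group means (r = 0.51 to 0.64 over probes).

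The members and all lists were chosen with earlier results of these data known. Named genes were those past the threshold, the 12 with the smallest p, the 10 brightest, those with a 2-fold change of 1 direction in every mouse, and others where their role group or system is described. Il1b, Lif, Tnf and Tnfaip6 and other such genes are shown for their role. The fit was tested on simulated data. The alternatives were the block, the floor, the scaling, dim probes, the variance prior, moderation, a pseudocount of 0.1, each mouse left out, and each pair of mice alone.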

Additional observations from a re-analysis of the deposited data

Results flagged for a closer look

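In the contralateral muscle of mouse 440, Tnfrsf12a had a log2 intensity of 0.20, far below the 2.75 to 3.27 of the other contralateral muscles, a gap of 0.83 of the group's range, just past Dixon's limit for 4 samples. In the stimulated muscle of mouse 440, Ccl4 had a log2 intensity of 5.71, below the 6.49 to 6.58 of the other stimulated muscles, a gap of 0.90 of the range. Chance flags about 1 in 20 groups, and 20 named genes were examined in both groups of 4 muscles.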

How the results depend on the processing

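No member was lower at the threshold under any alternative run. With no replicate block 1 probe was higher and 0 lower, against 115 and 24 with it, and 0 members were called. Tnfaip2 had a limma adjusted p of 0.438 there. An unadjusted p under 0.05 was found in 477 probes (4.58%) and 5 members (4.46%). The 20th percentile as floor gave 0 and 0 probes and 0 members with limma (unadjusted 1296 probes, 12.5%, and 16 members, 14.3%). Once probes at the floor on every array were dropped, it called 17 and 2 probes and 0 members. That alternative was chosen after seeing the data. Without the intensity trend 45 and 5 probes and 0 members were called. The paired test without moderation called 0 and 0 probes and 0 members (unadjusted 1208 probes, 11.6%, and 13 members, 11.6%). Without the dimmest 50% of probes, and with log2(value + 0.1), 0 members were higher, with Tnfaip2 at limma adjusted p 0.0537 and 0.0523. In the first of these the members' median was 0.26, after a cut on the mean that includes the stimulated arrays. Quantile normalization and cyclic loess called 1 member, Tnfaip2, with 95 and 111 probes higher and 20 and 17 lower. Leaving out 1 mouse gave 7 to 166 probes higher, 0 to 29 lower and 0 to 3 members higher. These were 0 members without mouse 183 (unadjusted 20, 17.9%, against 13.1% of probes) and Tnfaip2 without mouse 197. They were Cxcl1, Cxcl5 and Tnfrsf12a without mouse 438, and Cxcl1 and Ccl8 without mouse 440. The members' median stayed between 0.01 and 0.07. Within mice 183 and 197, 0 and 0 probes and 0 members were called with limma (unadjusted 855 probes, 8.34%, and 16 members, 14.5%). Within mice 438 and 440, 70 and 9 probes and 1 member, Tnfaip2, were called. The change of Ccl4 turned positive at 0.046 (quantile), 0.12 (cyclic loess) and 0.018 (within mice 183 and 197). With 1 mouse left out it ran from -0.13 to 0.11 (without mouse 440), that of Il5 from -0.035 (without mouse 197) to 0.18 and that of Cxcr4 from -0.10 (without mouse 438) to 0.34. The cause was not tested. Averaging several probes of a gene was not run because each member has 1 probe. The signal of dim members near the floor limits their changes.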
